A study of Mus musculus with 15 samples.

Results

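The genes described here are 53 genes of the interferon response in mouse intestinal epithelium: the receptor chains for interferons, the transcription factors and sensors that regulate the response, and the effector genes that interferons induce. They were taken by symbol from a table of 24594 genes counted in sorted epithelium, and 53 of 53 symbols were present. The comparison was between E16.5 proximal intestine (C57Bl/6J, untreated, 3 libraries, cells sorted as EpCAM+ and negative for DAPI, CD31 and CD45) and crypts of the proximal 20% of the adult small intestine (C57Bl/6J, wild type, 3 libraries, cells sorted as EpCAM+ and CD24mid and negative for DAPI and lineage markers). The exact adult age, the genotype and library kit of the fetal samples, and whether libraries of a group came from separate animals are not given in the labels, so the p-values reflect how much these libraries vary, which can be technical variation. Age, sorting gate and region of the epithelium (crypt against whole epithelium) changed together and cannot be told apart. The series also holds 9 organoid libraries, which were not used here because their table carries no gene identifiers. The study asks how the fetal epithelium matures into its adult state.

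Interferons are secreted proteins that warn cells of infection. Type I interferons bind IFNAR1 and IFNAR2, type II interferon (interferon gamma) binds IFNGR1 and IFNGR2, and type III interferons (lambda) bind IFNLR1 together with IL10RB, a pair that is used mainly by epithelia such as the gut lining. The receptors act through JAK kinases on STAT proteins. A complex that holds STAT2 and IRF9 binds interferon-stimulated response elements (ISRE), whereas STAT dimers bind gamma-activated sites (GAS), and both switch on genes that block viruses and intracellular microbes.

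The 6 libraries held 7888998 to 10538004 counts (E16.5) and 5795518 to 6045113 counts (adult). Levels are given as CPM, the counts of a gene relative to the library total, scaled by the TMM factors of edgeR, and means carry the SD over 3 libraries. No library repeated another: within a group, any pair had a ratio of chi-square to its degrees of freedom of 4.83 or more. Epcam, the epithelial marker used in both sorts, stood at 857, 832 and 839 CPM in E16.5 libraries and 975, 1054 and 1070 CPM in adult libraries. The 8 epithelial markers summed to 5069 to 5198 CPM in E16.5 libraries and 7368 to 7779 CPM in adult libraries. Of the 8, 6 were called lower in E16.5 epithelium, where 25.9% of all tested genes were. Epcam was among the 6, and Krt8 and Krt19 were lower by over 2-fold. Ptprc, which encodes CD45, had 6 counts over the E16.5 libraries and 9 over the adult libraries. The 12 markers of immune cells summed to 23.9 to 24.6 CPM in E16.5 libraries and 27.1 to 30.7 CPM in adult libraries, and 8 of them were too low to test. The 4 that were tested were all called, in both directions. Itgam averaged 3.35 ± 0.939 CPM in E16.5 libraries and 12.1 ± 1.11 CPM in adult libraries, and Cd68 averaged 1.71 ± 0.194 CPM in E16.5 libraries and 4.73 ± 0.751 CPM in adult libraries. Csf1r averaged 14.3 ± 1.21 CPM in E16.5 libraries and 8.70 ± 0.829 CPM in adult libraries, and Laptm5 had 79 counts in E16.5 libraries and 3 in adult libraries. Marker lists of other tissues were higher in the E16.5 libraries: 10 mesenchyme genes summed to 148 to 207 CPM against 7.25 to 15.9 CPM in adult libraries, 6 exocrine pancreas genes to 666 to 1505 CPM against 2.76 to 3.90 CPM, and 4 hemoglobin and red cell genes to 31.5 to 55.5 CPM against 0.508 to 1.38 CPM. The part of these cells in the interferon gene results was not tested, and in such bulk libraries fewer cells of a type and less RNA per cell cannot be told apart.

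Transcripts of most of the interferon transcription factors and effector genes tested were lower in E16.5 epithelium, but those of most receptor chains were not. Of the 53 genes, 49 had enough counts to be tested, and 36 of them (73.5%) were called lower in E16.5 epithelium, where 25.9% of all 13314 tested genes were called lower (edgeR quasi-likelihood test, Benjamini-Hochberg adjusted p under 0.05). Genes called higher numbered 2 (4.08%), Ifnlr1 and Ifit1, where 29% of all tested genes were called higher. A further 11 were not called, and Ifit3, Ifitm1, Iigp1 and Mx1 were too low to be tested. A gene that passes the count filter through the adult libraries alone had to differ, so these counts describe the tested genes and no others. Such genes include Isg15, Gbp6 and Ifi44, with 3 counts each over the E16.5 libraries. How many of the 49 passed in this way was not counted. The median log2 fold change, E16.5 over adult, was −1.55 over the 49 genes and 0.01 over all tested genes, whose middle 50% lay between −0.35 and 0.52. With a fold change of over 2 in addition, 29 of the 49 (59.2%) were called lower, against 7.95% of all tested genes, and 1 was called higher (Ifit1, 2.04%), against 16% of all tested genes. In 35 of the 49 (71.4%) every E16.5 library lay below every adult library, against 29.7% of all tested genes. In 3 of the 49 (6.12%), Ifnar1, Ifnlr1 and Ifit1, every E16.5 library lay above every adult library, against 32.6% of all tested genes.

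**Figure D1:**
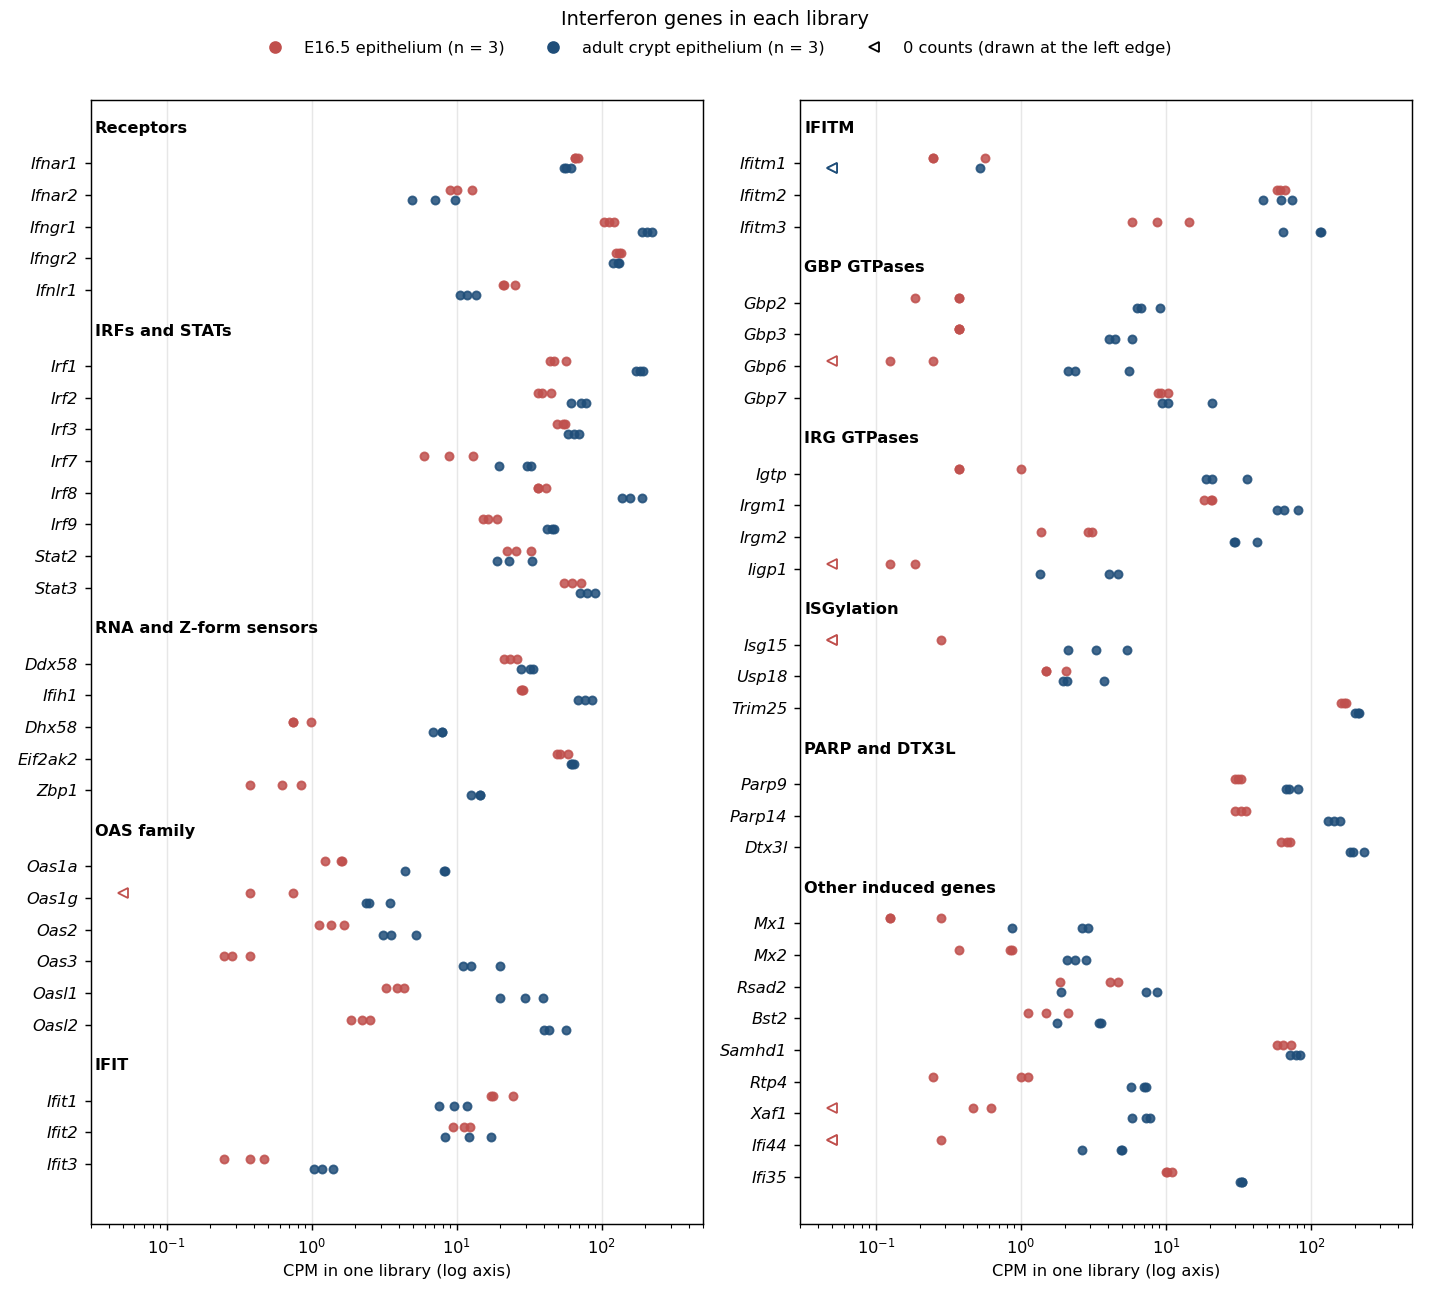
CPM (log axis) of each of the 53 interferon genes in each library, E16.5 epithelium in red above adult crypt epithelium in blue (n = 3 each), grouped by role; open triangles mark 0 counts. Red and blue points overlap for Ifngr2, Ifnar2 and Gbp7, among others, whereas E16.5 libraries of Igtp reach at most 0.995 CPM and adult libraries at least 19.0 CPM.

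Interferon signals reach genes through short ISRE and GAS elements near their starts, and the stretches printed here were chosen because they hold such strings in genes of each call: called lower (Isg15, Oas3, Igtp, Irgm2, Gbp3, Irf1), not called (Gbp7) and called higher (Ifit1). They come from RefSeq promoter windows of 250 bases before to 50 bases after an annotated transcription start (build GRCm38.p6, a patch of the assembly that mm10 names), read 5′ to 3′ on the gene's strand. Capitals mark the ISRE core GAAANNGAA or its reverse complement and the GAS string TTCNNNGAA, which is its own reverse complement in form. Isg15 is shown from chr4:156200849-156200928 (minus strand), Oas3 from chr5:120777690-120777769 (minus strand), Igtp from chr11:58199446-58199545 (plus strand), Irgm2 from chr11:58214867-58214966 (plus strand), Gbp3 from chr3:142559934-142560033 (plus strand), Gbp7 from chr3:142530226-142530325 (plus strand), Irf1 from chr11:53769894-53769973 (plus strand) and Ifit1 from chr19:34640759-34640838 (plus strand).
Isg15: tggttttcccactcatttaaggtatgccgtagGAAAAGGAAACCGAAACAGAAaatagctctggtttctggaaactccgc
Oas3: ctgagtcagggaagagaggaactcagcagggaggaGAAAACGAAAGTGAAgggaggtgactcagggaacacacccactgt
Igtp: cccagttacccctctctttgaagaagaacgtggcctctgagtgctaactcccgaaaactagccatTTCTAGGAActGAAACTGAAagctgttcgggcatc
Irgm2: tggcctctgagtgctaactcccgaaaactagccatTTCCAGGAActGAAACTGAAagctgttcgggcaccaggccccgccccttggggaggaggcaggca
Gbp3: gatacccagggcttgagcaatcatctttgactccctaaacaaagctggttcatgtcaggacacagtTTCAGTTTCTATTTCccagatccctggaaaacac
Gbp7: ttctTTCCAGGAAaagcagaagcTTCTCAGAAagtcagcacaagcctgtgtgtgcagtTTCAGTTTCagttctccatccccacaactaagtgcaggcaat
Irf1: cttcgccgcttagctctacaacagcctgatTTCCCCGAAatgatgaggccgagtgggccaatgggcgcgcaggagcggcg
Ifit1: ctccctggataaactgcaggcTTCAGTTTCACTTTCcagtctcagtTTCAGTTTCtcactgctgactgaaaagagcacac
The capitals of Isg15 and Oas3 are runs of overlapping ISRE cores, and Igtp and Irgm2 each hold a GAS string directly before an ISRE core. Irf1 holds a GAS string and no ISRE core in its window.

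A promoter window was found for 42 of the 53 genes. The ISRE core occurred on either strand in 23 of the 42 (54.8%), against 9.76% of all 27025 genes with a window and 8.36% of the tested genes with one. The GAS string occurred in 15 of the 42 (35.7%), against 9.55% of all genes with a window. Both were present in 8 of the 42. The ISRE core was found in 0 of 5 receptor genes, 2 of 8 IRF and STAT genes (Irf2 and Stat2) and 21 of 29 effector and sensor genes (72.4%). Among the 29 effector and sensor genes, it was present in 15 of 20 called lower, in 4 of 6 not called and in Ifit1, the 1 called higher. The windows of Igtp and Irgm2 share an exact run of 61 bases and those of Oas1a and Oas1g a run of 73 bases, so these pairs are not independent examples. A match is a description of letters and does not show that a factor binds there, and no match says only that the letters are not in this window.

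**Figure D2:**
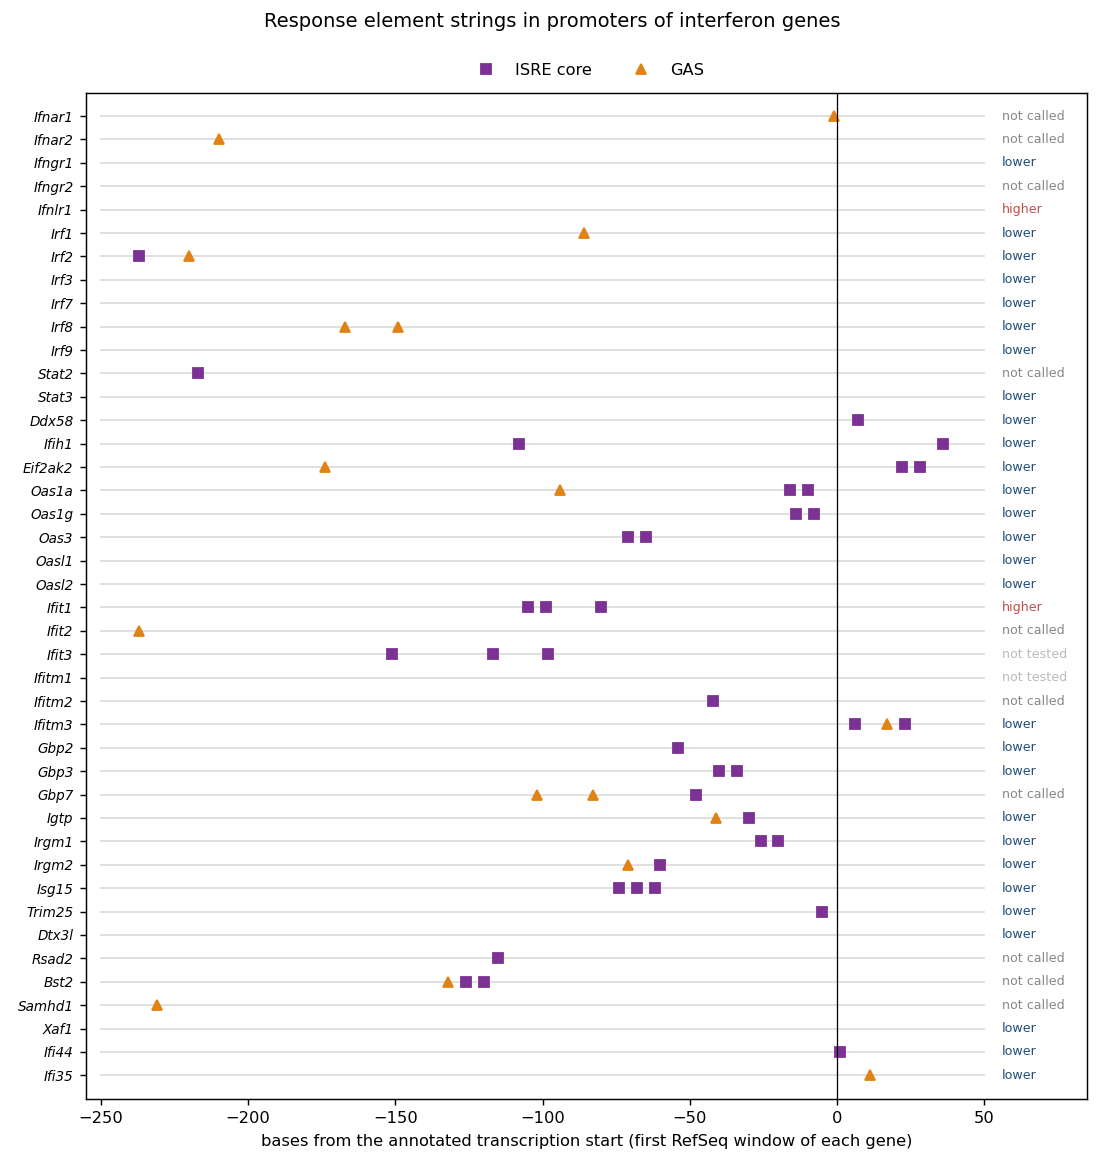
Position of the ISRE core (squares) and the GAS string (triangles) in the promoter window of each of the 42 interferon genes with one, in bases from the annotated start; the call in E16.5 against adult epithelium stands at the right. Squares are found in 23 of 42 genes, in rows of each call, and none in the 5 receptor genes at the top.

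Of the 5 receptor genes, Ifnlr1 was higher, Ifngr1 was lower and the other 3 were not called, with a median log2 fold change of 0.21. Calls in each direction were thus about as frequent as among all tested genes (29% higher and 25.9% lower). Ifnlr1, the specific chain of the interferon lambda receptor, had 20.8, 21.2 and 25.3 CPM in E16.5 libraries and 13.6, 10.5 and 11.7 CPM in adult libraries. All 3 E16.5 libraries lay above the adult ones (log2 fold change 0.91 ± 0.16 (SE), adjusted p = 0.00031). Il10rb, the other chain of that receptor and also part of the interleukin-10 receptor, had 114, 125 and 137 CPM in E16.5 libraries and 70.8, 65.4 and 74.4 CPM in adult libraries, again with no overlap (log2 fold change 0.84 ± 0.09 (SE), adjusted p = 7.79e-06). Both chains of the lambda receptor were thus higher in E16.5 epithelium.

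Ifngr1, the ligand-binding chain for interferon gamma, had 121, 104 and 113 CPM in E16.5 libraries and 204, 191 and 221 CPM in adult libraries. The groups did not overlap (log2 fold change −0.86 ± 0.09 (SE), adjusted p = 3.65e-06). Its partner Ifngr2, which brings in JAK2, had 132, 135 and 126 CPM in E16.5 libraries and 129.6, 120.1 and 132 CPM in adult libraries. These overlapped, and the log2 difference of 0.04 ± 0.08 (SE) was not called (adjusted p = 0.687). Ifnar1, a chain of the type I receptor, had 65.4, 65.8 and 68.8 CPM in E16.5 libraries and 61.4, 56.8 and 54.6 CPM in adult libraries, without overlap but below the threshold (log2 fold change 0.21 ± 0.09 (SE), adjusted p = 0.0619). Ifnar2, the high-affinity chain of the same receptor, had 8.96, 12.8 and 10.1 CPM in E16.5 libraries and 9.71, 4.91 and 7.08 CPM in adult libraries, with overlap (log2 fold change 0.56 ± 0.25 (SE), adjusted p = 0.0768). Without adult replicate 1, the highest adult library for Ifnar2, its log2 fold change was 0.82 and passed the threshold (adjusted p = 0.0214).

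Per kb of exonic length, the order of the receptor chains differed between the groups. In E16.5 epithelium Il10rb averaged 67.6 CPM per kb, Ifngr1 53.4, Ifngr2 35.3, Ifnar1 17.1, Ifnlr1 5.36 and Ifnar2 3.35. In adult epithelium Ifngr1 averaged 97.2 CPM per kb, Il10rb 37.9, Ifngr2 34.3, Ifnar1 14.7, Ifnlr1 2.86 and Ifnar2 2.28. Il10rb stood above Ifngr1 in E16.5 epithelium and far below it in adult epithelium. In the adult libraries, the ranges of the neighbours Il10rb (SD 2.45) and Ifngr2 (SD 1.68) overlapped, as did those of Ifnlr1 (SD 0.371) and Ifnar2 (SD 0.756). Within each adult library, however, Il10rb stood above Ifngr2 and Ifnlr1 above Ifnar2. Differences between genes were not tested. In the E16.5 libraries no neighbours in this order overlapped.

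**Figure D3:**
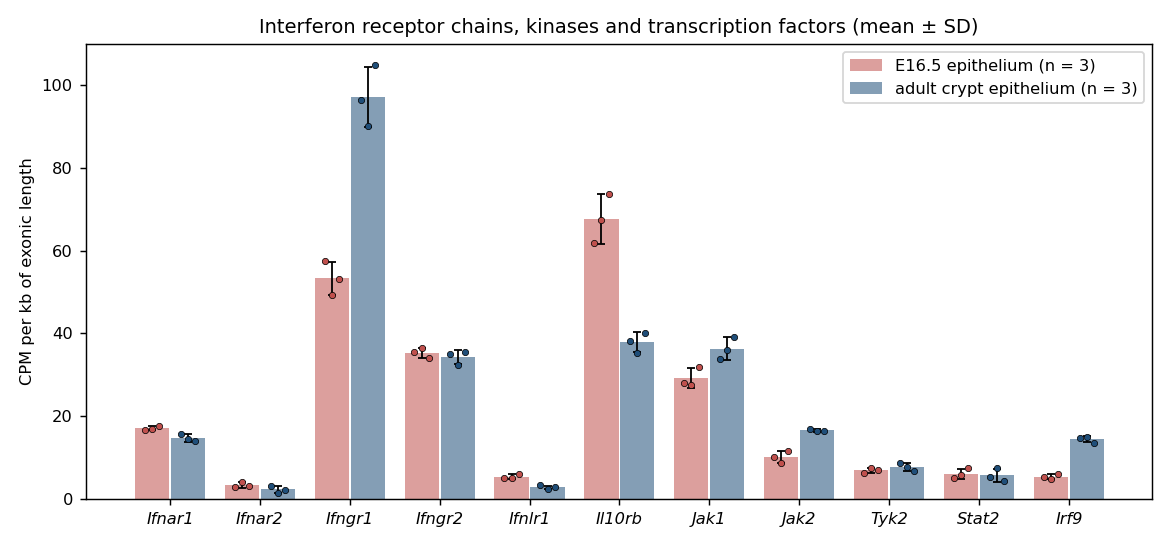
CPM per kb of exonic length of interferon receptor chains, JAK kinases and transcription factors, E16.5 epithelium (red) left of adult crypt epithelium (blue); bars are means, error bars SD and points the 3 libraries. Ifngr1 reaches 53.4 CPM per kb in E16.5 and 97.2 in adult epithelium, whereas Ifnlr1 and Il10rb are higher in E16.5 epithelium.

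Interferon genes themselves were nearly silent in both groups. Of 21 interferon ligand genes in the table, 17 had 0 counts in all 6 libraries, which allows up to 3 counts over a group or 0.112 CPM in E16.5 and 0.173 CPM in adult epithelium, for counting error only. All 21 together gave 18 counts in E16.5 libraries and 21 in adult libraries, of which Ifnk, a type I interferon of keratinocytes, gave 14 and 18. None was high enough to be tested, so a difference in ligand transcripts was not detectable at this depth.

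Among the signalling genes behind the receptors, Irf9, Jak1 and Jak2 were lower in E16.5 epithelium, whereas Stat2 and Tyk2 were not called. Irf9, the DNA-binding partner of STAT2, had 16.3, 15.2 and 18.9 CPM in E16.5 libraries and 45.7, 46.8 and 42.1 CPM in adult libraries, without overlap (log2 fold change −1.41 ± 0.12 (SE), adjusted p = 6.69e-07). Stat2 had 22.3, 25.6 and 32.3 CPM in E16.5 libraries and 22.9, 32.9 and 19.0 CPM in adult libraries. These ranges overlapped, and Stat2 was not called (log2 fold change 0.11 ± 0.19 (SE), adjusted p = 0.663). Among the kinases, Jak2 averaged 50.9 ± 7.15 CPM in E16.5 libraries and 83.5 ± 1.55 CPM in adult libraries (log2 fold change −0.71 ± 0.11 (SE), adjusted p = 9.54e-05), Jak1 averaged 143 ± 12.0 CPM in E16.5 libraries and 178 ± 13.3 CPM in adult libraries (log2 fold change −0.31 ± 0.09 (SE), adjusted p = 0.0108) and Tyk2 averaged 38.4 ± 3.48 CPM in E16.5 libraries and 43.2 ± 5.55 CPM in adult libraries and was not called (adjusted p = 0.26). Of 9 tested feedback genes, 2 were lower (Socs3, log2 −0.47, and Ptpn2, −0.36) and 2 higher (Pias2, 0.39, and Pias4, 0.26), and none passed 2-fold. These counts are close to the shares of all tested genes, of which 25.9% were called lower and 29% higher.

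Of the 8 IRF and STAT genes, 7 were lower and Stat2 was not called, with a median log2 fold change of −1.11. Irf8, a factor of interferon gamma responses best known in myeloid cells, had 41.2, 36.2 and 36.3 CPM in E16.5 libraries and 137, 156 and 190.3 CPM in adult libraries. The highest E16.5 library stood far below the lowest adult one (log2 fold change −2.09 ± 0.12 (SE), adjusted p = 1.44e-08), and the 12 immune markers summed to at most 24.6 CPM in E16.5 libraries and at least 27.1 CPM in adult libraries. Among those markers Itgam and Cd68 were lower in E16.5 epithelium, like Irf8, and Csf1r and Laptm5 were higher. Their part in the Irf8 levels was not tested. Irf1, an early target of interferon gamma, had 47.1, 43.8 and 56.7 CPM in E16.5 libraries and 183, 171 and 191 CPM in adult libraries, without overlap (log2 fold change −1.88 ± 0.10 (SE), adjusted p = 1.04e-08). Irf7, the amplifier of type I interferon production, had 5.98, 8.83 and 12.9 CPM in E16.5 libraries and 32.5, 30.5 and 19.5 CPM in adult libraries. Its libraries were uneven within both groups but did not overlap (log2 fold change −1.55 ± 0.25 (SE), adjusted p = 0.00019). Irf2, which competes with IRF1 for the same sites, fell by 0.81 on the log2 scale and Irf3, the factor that is activated after transcription by viral sensing, by 0.28 (adjusted p = 0.0316). Stat3, which also serves interleukin-6 and interleukin-22 receptors, fell by 0.35 (adjusted p = 0.0251) with overlapping groups. Irf3 kept its call in 7 of 14 alternative fits: it was lost with DESeq2 (adjusted p = 0.0714), with library size only (0.065), with the replicate number as a block (0.0565) and without any of 4 single libraries (up to 0.123, without fetal replicate 1). Stat3 kept its call in 11 of 14 and lost it without any of 3 single libraries (adjusted p up to 0.112, without fetal replicate 1).

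All 5 sensor genes were called lower, over a wide range of sizes. Zbp1, a sensor of Z-form nucleic acid that can start necroptosis, had 0.373, 0.622 and 0.841 CPM in E16.5 libraries and 14.5, 14.6 and 12.6 CPM in adult libraries. The E16.5 libraries held 17 counts in all, far below any adult library (log2 fold change −4.42 ± 0.30 (SE), adjusted p = 5.59e-08). Dhx58 (LGP2), a regulator of RNA sensing, had 0.747, 0.995 and 0.748 CPM in E16.5 libraries and 7.94, 7.96 and 6.91 CPM in adult libraries, without overlap (log2 fold change −3.18 ± 0.31 (SE), adjusted p = 1.84e-06). Ifih1 (MDA5), a sensor of long double-stranded RNA, averaged 28.2 ± 0.587 CPM in E16.5 libraries and 77.3 ± 8.76 CPM in adult libraries (log2 fold change −1.45 ± 0.11 (SE), adjusted p = 1.33e-07). Ddx58 (RIG-I), a sensor of RNA ends, fell by 0.40 (adjusted p = 0.0193) and Eif2ak2 (PKR), a kinase that stops translation, by 0.24 (adjusted p = 0.0489). The call of Eif2ak2 was kept in 1 of 14 alternative fits, and that of Ddx58 was lost without fetal replicate 1, fetal replicate 2 or adult replicate 2 (adjusted p up to 0.0819). A read from the opposite-strand transcript Dhx58os could count for Dhx58 if the counting ignored strand, which is not given in the sources used here.

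Of 11 tested genes of the adaptors and other sensors, 7 were lower and 2 higher, with a median log2 fold change of −0.68. Among all tested genes, 25.9% were called lower and 29% higher. The largest were Tlr3, an endosomal sensor of double-stranded RNA, at 4.73, 3.48 and 4.11 CPM in E16.5 libraries and 28.9, 29.99 and 26.9 CPM in adult libraries (log2 fold change −2.79 ± 0.17 (SE), adjusted p = 2.37e-08), and Cgas, the cytosolic DNA sensor, at 4.23, 3.11 and 2.9 CPM in E16.5 libraries and 25.2, 24.1 and 20.4 CPM in adult libraries (log2 fold change −2.77 ± 0.20 (SE), adjusted p = 1.13e-07). Neither gene's groups overlapped. Sting1, the adaptor of CGAS, fell by 1.03 and Traf3, which links sensors to kinases, by 0.90.

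The OAS family, which makes the second messenger of RNase L or binds viral RNA, was lower in 6 of 6 genes, with a median log2 fold change of −2.83. Oas3 had 0.249, 0.373 and 0.28 CPM in E16.5 libraries, or 8 counts in all, and 12.5, 19.8 and 11.1 CPM in adult libraries. It was barely detected in E16.5 epithelium (log2 fold change −5.52 ± 0.39 (SE), adjusted p = 9.17e-08). Oasl2, an OAS-like gene, had 1.87, 2.24 and 2.52 CPM in E16.5 libraries and 40.1, 57.1 and 43.2 CPM in adult libraries, without overlap (log2 fold change −4.38 ± 0.20 (SE), adjusted p = 1.64e-09). Oasl1, an OAS-like gene that restrains translation of Irf7 in mouse, had 3.86, 3.24 and 4.3 CPM in E16.5 libraries and 29.5, 39.3 and 20.0 CPM in adult libraries (log2 fold change −2.94 ± 0.25 (SE), adjusted p = 5.38e-07). The adult values of Oas3, Oasl1 and Oasl2 were each highest in replicate 2.

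Oas1a fell by 2.20, Oas1g by 2.72 and Oas2 by 1.48 on the log2 scale. Oas1a shares 57.6% of its 50-base words with other genes, most of all with Oas1g, so the split of reads between them is uncertain. Oas1g had 0, 3 and 8 counts in E16.5 replicates 1 to 3, and its log2 fold change was −3.75 without fetal replicate 3. The per-length levels of the adult libraries ran from 14.98 CPM per kb for Oasl2 and 13.4 for Oasl1 to 1.0 for Oas2, and those of the E16.5 libraries from 1.72 for Oasl1 to 0.0638 for Oas3.

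GTPases that interferon gamma induces against intracellular pathogens were low in E16.5 epithelium, with exceptions. The immunity-related GTPases (IRG) were lower in 3 of 3 tested genes (median log2 fold change −3.75) and the guanylate-binding proteins (GBP) in 3 of 4 (−4.08). Igtp (Irgm3), which keeps other IRG proteins inactive on host membranes, had 0.373, 0.995 and 0.374 CPM in E16.5 libraries and 20.7, 19.0 and 36.4 CPM in adult libraries. The lowest adult library was many times the highest E16.5 one (log2 fold change −5.45 ± 0.39 (SE), adjusted p = 9.6e-08). Irgm2 had 1.37, 3.11 and 2.9 CPM in E16.5 libraries and 29.7, 29.3 and 42.6 CPM in adult libraries, without overlap (log2 fold change −3.75 ± 0.25 (SE), adjusted p = 5.74e-08). Irgm1, a regulator of the same family and of autophagy, kept a sizeable E16.5 level of 20.5, 18.3 and 20.7 CPM, against 58.4, 64.6 and 81.5 CPM in adult libraries (log2 fold change −1.78 ± 0.13 (SE), adjusted p = 1.64e-07). Igtp and Irgm2, whose promoter windows were shown above, also overlap in annotated exons. Of the 50-base words of Igtp, 11.8% occur in other genes, most of all in Irgm2. Iigp1, an effector IRG that was too low to be tested, had 3 counts in E16.5 libraries and 58 in adult libraries, an adult-to-E16.5 ratio of 29.8 with an exact 95% counting interval of 9.71 to 149.

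Gbp2, a GTPase that attacks pathogen membranes, had 0.373, 0.373 and 0.187 CPM in E16.5 libraries and 6.71, 6.27 and 9.15 CPM in adult libraries. All 8 E16.5 counts of Gbp2 together were fewer than the counts of any adult library (log2 fold change −4.54 ± 0.40 (SE), adjusted p = 7.27e-07). Gbp3 had 0.373, 0.373 and 0.374 CPM in E16.5 libraries and 4.41, 4.07 and 5.87 CPM in adult libraries, likewise without overlap (log2 fold change −3.62 ± 0.39 (SE), adjusted p = 4.96e-06). Gbp6 had 3 counts in E16.5 libraries, and its adult-to-E16.5 ratio was 29.8 (counting interval 9.71 to 149). However, 70.7% of the 50-base words of Gbp6 occur in other genes as well, most of all in Gm43302. Its fitted log2 fold change of −4.69 was −5.56 without fetal replicate 2 and −4.02 without fetal replicate 3. Gbp7 had 8.84, 9.21 and 10.3 CPM in E16.5 libraries and 10.2, 9.32 and 20.9 CPM in adult libraries. Its groups overlapped and it was not called (log2 fold change −0.51 ± 0.27 (SE), adjusted p = 0.131). The log2 fold change of Gbp7 was −0.04 without adult replicate 3, its highest library, and −0.72 (adjusted p = 0.042) without adult replicate 2.

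Of the 3 IFIT genes, whose proteins bind foreign RNA, 2 were tested. Neither was called lower in E16.5 epithelium, and Ifit1 was higher. Ifit1 had 17.3, 24.4 and 17.7 CPM in E16.5 libraries and 9.53, 11.7 and 7.6 CPM in adult libraries. Every E16.5 library lay above every adult one (log2 fold change 1.04 ± 0.20 (SE), adjusted p = 0.000738), and Ifit1 kept its call in 14 of 14 alternative fits, with log2 fold changes of 0.87 to 1.20. Ifit2, a partner of the same family, had 11.2, 12.3 and 9.44 CPM in E16.5 libraries and 8.3, 12.2 and 17.3 CPM in adult libraries, with overlap (log2 fold change −0.20 ± 0.24 (SE), adjusted p = 0.499). Ifit3, too low to be tested, had 10 counts in E16.5 libraries and 21 in adult libraries. Its mean was 0.363 ± 0.11 CPM in E16.5 libraries and 1.21 ± 0.189 CPM in adult libraries. Every E16.5 library lay below every adult one for Ifit3. It shares 51.2% of its 50-base words with other genes, most of all with Ifit3b. The promoter window of Ifit1 holds ISRE cores like those of the genes that were lower.

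The IFITM genes encode membrane proteins that block viral entry. Ifitm3 had 5.85, 14.3 and 8.69 CPM in E16.5 libraries and 63.7, 115 and 116 CPM in adult libraries. The groups were far apart although both varied within themselves (log2 fold change −3.36 ± 0.27 (SE), adjusted p = 3.57e-07). Ifitm2 had 66.6, 61.5 and 58.0 CPM in E16.5 libraries and 46.8, 62.2 and 73.6 CPM in adult libraries, and the groups overlapped (log2 0.03 ± 0.14, adjusted p = 0.887). Per kb, Ifitm2 stood at 94.7 CPM in E16.5 and 92.9 CPM in adult epithelium, whereas Ifitm3 stood at 14.2 and 145 CPM per kb in the same groups, and Ifitm2 was the higher of the pair in every E16.5 library. In adult replicates 1 to 3, Ifitm2 stood at 71.4, 94.9 and 112 CPM per kb and Ifitm3 at 94.0, 169 and 172. These ranges overlapped, but Ifitm3 was the higher of the pair in every adult library. The difference between the 2 genes was not tested. Of the 50-base words of Ifitm2, 48.5% are shared with other genes, most of all with the overlapping transcript Gm45717. Ifitm1, known in mouse for its expression in early germ cells, had 10 counts in E16.5 libraries and 3 in adult libraries, an E16.5-to-adult ratio of 2.16 (counting interval 0.557 to 12.2), and was too low to be tested.

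Isg15, a ubiquitin-like protein that is attached to targets during the interferon response, had 0, 0 and 3 counts in E16.5 replicates 1 to 3 and 12, 32 and 19 counts in adult replicates 1 to 3. All E16.5 counts came from 1 library, and the adult-to-E16.5 ratio was 32.4 (counting interval 10.6 to 161). The fitted log2 fold change of −4.82 (adjusted p = 7.24e-05) was −7.60 without fetal replicate 3. Usp18, the protease that removes ISG15 and dampens the type I receptor, had 1.49, 1.49 and 2.06 CPM in E16.5 libraries and 1.94, 3.73 and 2.07 CPM in adult libraries, which overlapped, and was not called (log2 fold change −0.60 ± 0.37 (SE), adjusted p = 0.192). Trim25, a ubiquitin and ISG15 ligase that activates RIG-I, averaged 167 ± 6.41 CPM in E16.5 libraries and 208 ± 8.08 CPM in adult libraries, a small difference that passed the test (log2 fold change −0.32 ± 0.08 (SE), adjusted p = 0.00396).

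Parp14, Parp9 and Dtx3l, which encode ADP-ribosyltransferases and a ubiquitin ligase that pairs with PARP9, were lower together. Parp14 had 30, 33.0 and 35.4 CPM in E16.5 libraries and 131, 143 and 158 CPM in adult libraries, far apart and tight within groups (log2 fold change −2.13 ± 0.10 (SE), adjusted p = 2.62e-09). Dtx3l averaged 67.4 ± 4.95 CPM in E16.5 libraries and 204 ± 23.0 CPM in adult libraries (log2 fold change −1.60 ± 0.10 (SE), adjusted p = 3.03e-08) and Parp9 averaged 31.2 ± 1.56 CPM in E16.5 libraries and 72.9 ± 7.22 CPM in adult libraries (log2 fold change −1.22 ± 0.10 (SE), adjusted p = 5.81e-07). Parp9 and Dtx3l lie head to head with overlapping exons on opposite strands, so without the strand setting their reads cannot be fully told apart.

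Of the other 9 effectors, 5 were lower, 3 were not called and Mx1 was too low to be tested. Ifi44 had 0, 0 and 3 counts in E16.5 replicates 1 to 3 and 15, 29 and 29 in adult replicates 1 to 3, a ratio adult to E16.5 of 37.5 (counting interval 12.3 to 186). Its fitted log2 fold change was −5.04 and, without fetal replicate 3, −7.81. Xaf1, a proapoptotic gene, had 0, 0.622 and 0.467 CPM in E16.5 libraries and 5.83, 7.79 and 7.25 CPM in adult libraries (log2 fold change −4.16 ± 0.48 (SE), adjusted p = 8.52e-06). Rtp4, a transporter chaperone with antiviral activity, had 0.249, 0.995 and 1.12 CPM in E16.5 libraries and 7.06, 7.29 and 5.7 CPM in adult libraries (log2 fold change −3.01 ± 0.39 (SE), adjusted p = 2.43e-05). Neither gene's groups overlapped. Ifi35 averaged 10.4 ± 0.51 CPM in E16.5 libraries and 33.1 ± 0.858 CPM in adult libraries (log2 fold change −1.67 ± 0.13 (SE), adjusted p = 2.27e-07), and Mx2, a dynamin-like antiviral GTPase, fell by 1.75 on the log2 scale. Its relative Mx1 had 1, 1 and 3 counts in E16.5 replicates 1 to 3 and 15, 17 and 5 in adult replicates 1 to 3.

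Rsad2 (viperin), which makes a chain-terminating nucleotide, had 1.87, 4.11 and 4.67 CPM in E16.5 libraries and 7.24, 8.64 and 1.9 CPM in adult libraries. Adult replicate 3 stood among the E16.5 libraries, and Rsad2 was not called (log2 fold change −0.71 ± 0.45 (SE), adjusted p = 0.201). Without that library its log2 fold change was −1.13 (adjusted p = 0.013). Bst2 (tetherin), which holds budding viruses at the membrane, averaged 1.58 ± 0.502 CPM in E16.5 libraries and 2.93 ± 1.01 CPM in adult libraries (log2 fold change −0.91 ± 0.39 (SE), adjusted p = 0.062) and passed the threshold without adult replicate 1, its lowest adult library (log2 −1.17, adjusted p = 0.0257). Samhd1, which depletes nucleotides, averaged 65.4 ± 7.39 CPM in E16.5 libraries and 77.9 ± 6.24 CPM in adult libraries (log2 fold change −0.25 ± 0.10 (SE), adjusted p = 0.0576). Its call was gained without fetal replicate 2 (adjusted p = 0.0294) or without adult replicate 1 (0.0362).

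**Figure D4:**
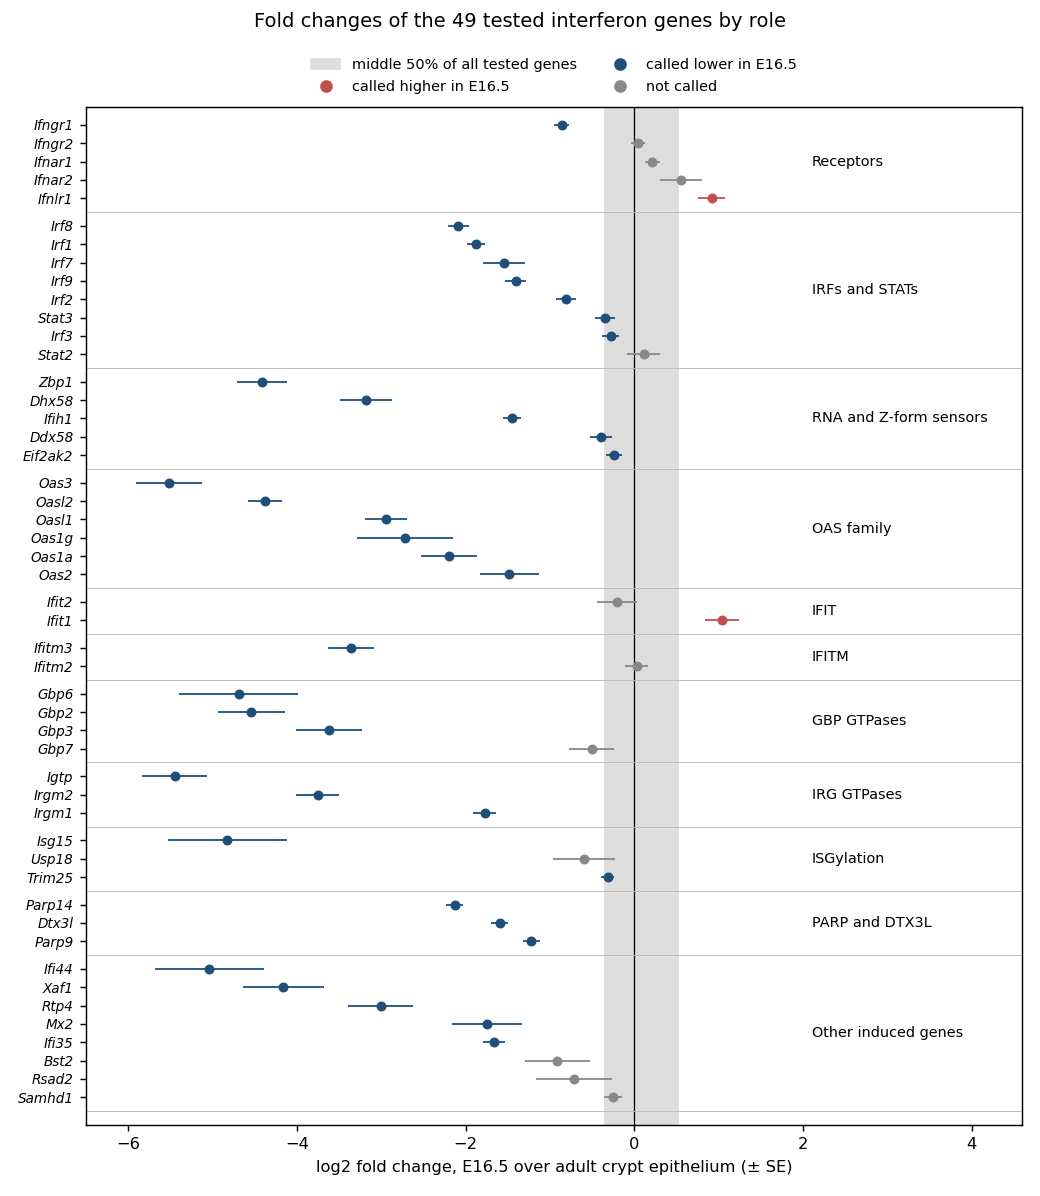
Log2 fold change, E16.5 over adult crypt epithelium, with SE, of the 49 tested interferon genes by role; blue genes were called lower in E16.5 epithelium, red higher and grey not called. The grey band holds the middle 50% of all tested genes (−0.35 to 0.52), and most genes other than the receptors lie left of it, down to −5.52 for Oas3.

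The effectors were not all highest in the same adult library. All 8 GBP and IRG genes of the set described at the start were highest in adult replicate 3. That library was the highest adult library in 34.2% of all tested genes. The 8 genes summed to 207 CPM there, against 136 CPM in each of adult replicates 1 and 2. Igtp, for example, stood at 36.4 CPM in adult replicate 3. GBP genes outside that set did not share 1 order. Gbp4 and Gbp5 were highest in adult replicate 1 and Gbp8 and Gbp9 in adult replicate 2, whereas Gbp10 was highest in adult replicate 3. Of these, Gbp4, Gbp5 and Gbp8 were too low to be tested. In adult replicate 3, 3 of 6 OAS genes were at their lowest of the adult group and 1 was at its highest. Of the 9 other effectors, 4 were at their lowest there, among them Rsad2 (1.90 CPM) and Mx1 (0.863 CPM), and 2 at their highest. Adult replicate 3 was the lowest adult library in 33.2% of all tested genes. Cxcl9, a chemokine induced by interferon gamma, had 10 counts in adult replicate 3 and 0 in the other 5 libraries; it was too low to be tested and is named after its values were seen. Adult replicate 3 also had the highest sum of 11 lymphocyte markers, at 5.87 CPM, against 3.35 and 3.56 CPM in adult replicates 1 and 2, but the markers did not share 1 order. In adult replicates 1 to 3, Gzma had 2, 4 and 10 counts, Gzmb 2, 8 and 5, Jchain 9, 2 and 4, Ms4a1 4, 1 and 3 and Cd3e 0, 0 and 2, and by CPM 5 of the 11 were highest in replicate 3. The part of lymphocytes in the GBP and IRG levels was not tested. The E16.5 libraries held 0.841 to 2.12 CPM of these lymphocyte markers, with 0 counts of Gzma and Gzmb and 19 of Cd3e. Without adult replicate 3, Igtp was lower by a log2 fold change of −5.09, Irgm2 by −3.55, Gbp2 by −4.36 and Gbp3 by −3.44, and each kept its call (adjusted p at most 3.09e-05).

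**Figure D5:**
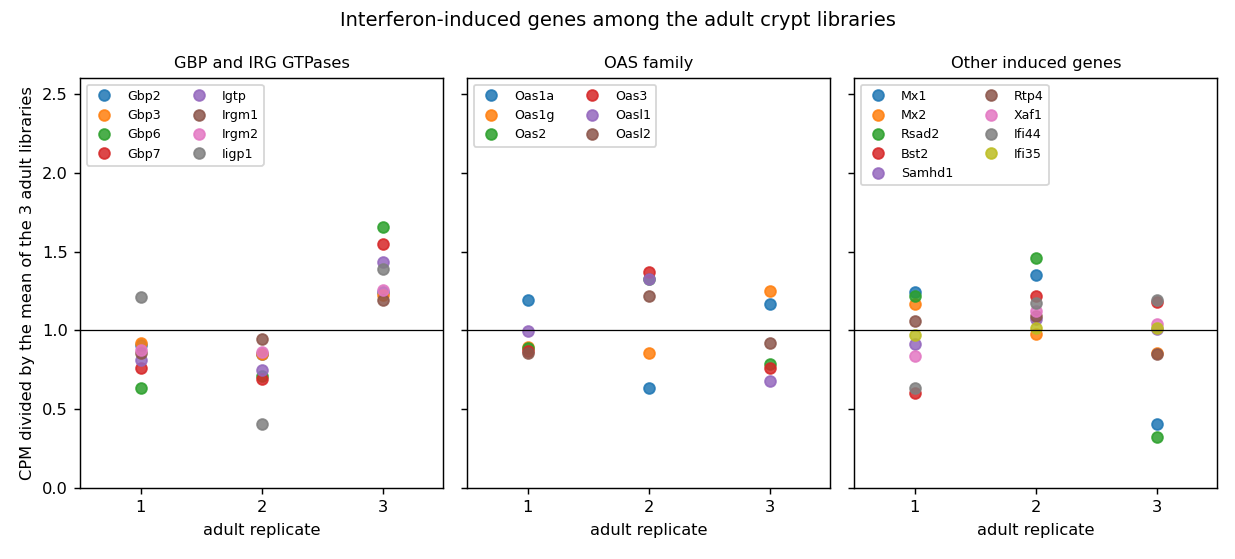
CPM of each gene in an adult crypt library divided by its mean over the 3 adult libraries, for the GBP and IRG genes, the OAS genes and the other induced genes. The 8 GBP and IRG genes are those of the set described at the start, and all their points of replicate 3 lie above 1. Of the 9 other induced genes, 4 lie lowest in replicate 3, Rsad2 and Mx1 among them, and 2 lie highest.

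Among the E16.5 libraries, replicate 1 had the lowest value in 28 of the 49 tested interferon genes (57.1%), against 33.7% of all tested genes, and replicate 3 the highest in 25 (51%), against 35.2%. The summed level of the 53 genes was 1230 CPM in E16.5 replicate 1, 1286 CPM in replicate 2 and 1306 CPM in replicate 3, against 2315, 2501 and 2629 CPM in adult replicates 1 to 3. The sums of both groups were narrow beside the gap between them.

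A list of other interferon-induced genes, outside the 53, moved in the same direction in most of its genes. This list was also chosen with earlier results of these data known and was counted in the same 6 libraries. It is therefore no independent support for the result of the 53. Of its 51 genes, 13 were too low to be tested. Of the 38 tested, 31 (81.6%) were lower, where 25.9% of all tested genes were, 3 (7.89%) were higher, where 29% were, and 4 were not called, with a median log2 fold change of −1.72. At most 3 counts over the E16.5 libraries were found for 5 of the 38 (Nlrc5, Tgtp2, Sp100, Gbp10 and Slfn5). These passed the filter through the adult libraries and so had to differ. Other genes with low E16.5 counts can have passed in the same way, and their number was not counted. The share called lower thus describes the tested genes only. Nlrc5, the activator of MHC class I genes, had 0, 0 and 3 counts in E16.5 replicates 1 to 3 and 57, 59 and 81 in adult replicates 1 to 3, an adult-to-E16.5 ratio of 101 (counting interval 34.1 to 495). Tgtp2, an IRG-related GTPase, had 0 counts in E16.5 libraries and 19, 16 and 75 in adult replicates 1 to 3, and was at least 56.5-fold lower, taking 3 counts over the group as the floor. Sp100, a nuclear body protein, had a ratio of 66.3 (22.2 to 326) and Gbp10 a ratio of 69.4 (11.8 to 2801). All 4 were near the detection limit in E16.5 epithelium.

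The 3 genes of this list that were higher are named here after their values were seen. Aim2, a cytosolic DNA sensor of the inflammasome, had 2.86, 3.24 and 2.8 CPM in E16.5 libraries and 0.353, 0.339 and 1.04 CPM in adult libraries (log2 fold change 2.33 ± 0.45 (SE), adjusted p = 0.000671). Cxcl10, a chemokine, had 2.12, 2.74 and 2.06 CPM in E16.5 libraries and 1.06, 0.508 and 1.04 CPM in adult libraries (log2 fold change 1.39 ± 0.41 (SE), adjusted p = 0.0116). Shisa5, a proapoptotic membrane protein, had 46.2, 52.6 and 53.7 CPM in E16.5 libraries and 28.1, 26.6 and 33.2 CPM in adult libraries (log2 fold change 0.80 ± 0.12 (SE), adjusted p = 7.69e-05). In each of the 3, every E16.5 library lay above every adult one.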

How the data were processed

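Gene counts of 6 sorted-cell libraries were analysed. The authors deposited whole-number counts per gene without normalization, judging by the values themselves. Build mm10 and edgeR are named in the submitters' processing notes. An aligner, annotation, strand setting or filter is not given in the sources used here. The adult libraries came from a low-input stranded kit for total RNA, and fetal and adult cells were sorted with different gates, per the labels' protocols. The 9 per-sample columns of the organoid table, which has no gene identifiers, were not used.

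Counts went into edgeR 4.0.16 (R 4.3.3) and its quasi-likelihood test. The fit used TMM factors, filterByExpr by group and no covariate, and p-values were adjusted by Benjamini-Hochberg over all 13314 tested genes. Standard errors are approximate: the size of the log2 fold change over the root of its F value. For genes with 1 to 3 counts in a group, a ratio of summed counts is given with its exact 95% interval, and floors of 3 counts likewise cover counting error only. The procedure was tested on simulated counts. The genes and all lists were chosen with earlier results of these data known, so lists are described by counts and medians and were not tested. All 53 genes could be named; of the other pathway genes, Jak1, Jak2, Tyk2, Il10rb and up to 4 called genes per list with the largest log2 fold change were named. Cxcl9, Slfn5, Gbp4, Gbp5, Gbp8, Gbp9 and the 3 other induced genes called higher were added after their values were seen.

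Exonic lengths and 50-base words shared with other genes came from GENCODE M21, and coordinates and promoter windows from RefSeq (GRCm38.p6). Of 47 windows, 43 ended inside a transcript on the gene's strand. One gene of the pathway lists is not reported here. The ISRE core and GAS strings were searched on both strands. Replicate numbers did not pair libraries: same-numbered libraries correlated at −0.0632, −0.0352 and −0.0873 in their deviations from the group means.

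The alternatives tried were DESeq2 1.42.0, RLE size factors, library size alone, limma-voom (limma 3.58.1), no filter, a stricter filter (minimum count 30), removal of Rn45s (a ribosomal precursor), the replicate number as a block, leaving out each library, an adjusted p of 0.01, and the ISRE core followed by a further A.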

Additional observations from a re-analysis of the deposited data

How the results depend on the processing

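The count of interferon genes called lower in E16.5 epithelium was 36 in the fit reported and 27 to 38 under the other settings. The lowest, 27, came with the stricter filter, under which 39 of the 53 genes were tested. The count was 34 with DESeq2, 35 with limma-voom, 34 with library size only, 38 with no filter and 32 at an adjusted p of 0.01. Genes called higher numbered 2 to 3 under every setting. Those called higher by over 2-fold numbered 1, and 0 to 2 when single libraries were left out. Ifit1 fell under 2-fold without fetal replicate 2 (log2 0.8675) or adult replicate 3 (0.8956), and Ifnlr1 passed it beside Ifit1 without adult replicate 1 (1.0102). Of the 36 genes called lower, 24 were called in every alternative fit that was run, where a gene dropped by a stricter filter counts as not called, and both genes called higher were called in all 14. Of 676 values of single genes under alternatives, 26 lost the call, 9 gained it and 6 changed sign. The sign changes were in genes that were not called. When single libraries were left out, the log2 fold change ran from −0.0047 to 0.0785 for Ifngr2 (lowest without adult replicate 2), from −0.0514 to 0.3534 for Stat2 (below 0 without fetal replicate 3, at −0.0477, or adult replicate 3), from −0.4334 to 0.0939 for Ifit2 (above 0 without adult replicate 3) and from −0.1364 to 0.1873 for Ifitm2 (below 0 without fetal replicate 1, at −0.0159, or adult replicate 1). The cause was not tested.

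With the replicate number as a block, 35 interferon genes were called lower and 2 higher, so the pairing moved these counts little. Irf3 and Eif2ak2 lost the call under the block and Samhd1 gained it. Library size only moved the median log2 fold change of all tested genes to 0.05, and no filter on low counts moved it to 0.13. The ISRE core followed by a further A was found in 21 of 42 genes in place of 23. Depth limits genes with few E16.5 counts, such as Isg15, Ifi44 and Gbp6, whose fitted fold changes moved by over 1.5 times when 1 library was left out.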
